A study of Mus musculus with 2 samples.

Results

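The 10 genes described here encode enzymes of glycolysis: the hexokinases Hk1 and Hk2, the phosphofructokinases Pfkl, Pfkm and Pfkp, the aldolase Aldoa, Gapdh, Pgk1, the pyruvate kinase Pkm and the lactate dehydrogenase Ldha. They were taken by name from gene tables that hold 43346 Ensembl genes, and the 2 transcripts of Pkm were taken from the transcript tables. The tissue was whole stomach of untreated B6NCrl mouse embryos at embryonic day 16.5, with male and female embryos pooled. There was 1 group with 2 biological replicates, sequenced as total RNA. Replicate 2 pooled 41 embryos, and the labels give no number for replicate 1. No conditions were compared, so the values show the share of each enzyme's RNA in the pools and how closely the pools matched. Levels are in TPM (the usual length-corrected share of all transcripts), as the mean ± SD with n = 2 libraries. A pool averages over embryos and over all cell types it held, so fewer cells of a type and less RNA per cell cannot be told apart.

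Glycolysis splits glucose into pyruvate, yielding ATP, and lactate dehydrogenase can then turn pyruvate into lactate while regenerating NAD. Hexokinase, phosphofructokinase and pyruvate kinase catalyse the effectively irreversible steps, and most steps have several isoenzymes that differ in tissue distribution and regulation. Pyruvate kinase from the Pkm gene comes in forms made by mutually exclusive splicing. The M1 form, a constitutively active tetramer, carries exon 9 and is typical of adult muscle and brain. The M2 form carries exon 10, is typical of embryonic and proliferating tissue, and is activated by fructose bisphosphate.

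The exons that tell the Pkm forms apart are shown because the share of the forms rests on reads that distinguish them. Both are coding exons of Pkm on the plus strand of chromosome 9 (GRCm38, annotation GENCODE M21), with M1 using chr9:59675029-59675195 and M2 using chr9:59675568-59675734. Capitals mark the bases that differ between the exons when they are laid side by side without gaps.
Exon 9, in M1 (Pkm-202): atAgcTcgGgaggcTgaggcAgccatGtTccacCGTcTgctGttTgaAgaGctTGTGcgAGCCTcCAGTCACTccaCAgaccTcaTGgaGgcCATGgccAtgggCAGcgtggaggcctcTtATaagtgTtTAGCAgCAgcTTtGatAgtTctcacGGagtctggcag
Exon 10, in M2 (Pkm-201): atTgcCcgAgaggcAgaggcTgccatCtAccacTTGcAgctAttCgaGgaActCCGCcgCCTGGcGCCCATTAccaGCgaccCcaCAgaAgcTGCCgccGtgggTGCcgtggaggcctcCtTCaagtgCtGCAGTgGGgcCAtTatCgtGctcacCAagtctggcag
Each exon is 167 bases long, and 372 bases lie between them. They differ at 64 positions and are identical at 61.7% of positions, with a longest identical run of 12 bases. The exchange alone therefore leaves the transcript length unchanged, and both forms are listed at 2432 bases in the tables. In M21 the transcripts also differ outside these exons. There Pkm-202 has 2041 bases and Pkm-201 has 2432, and Pkm-202 starts 205 bases downstream.

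Both libraries carried stomach transcripts. Total expected counts (the authors' estimated reads per gene, with shared reads split) were 44567153 in replicate 1 and 25677702 in replicate 2. The stomach mesenchyme list was detected at 1 TPM or more in both libraries for 5 of 5 genes (Meis1 at 124.48 and 120.21 TPM), the squamous epithelium list for 8 of 8 (Krt4 at 1787 and 3252 TPM) and the glandular epithelium list for 11 of 11. Other tissues were present as well: 14 of 14 skeletal muscle genes were detected, with summed levels of 2684 TPM in replicate 1 and 225 in replicate 2, none at 0. The liver list had 8 of 8 detected, at 1628 and 1287 TPM in sum, and the pancreatic acinar list 6 of 6, at 8856 and 9242.

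All 10 enzyme genes reached 1 TPM in both libraries. Together they took 0.512% of all TPM in replicate 1 and 0.518% in replicate 2. Their median level was 202.1 and 191.2 TPM, or 197 ± 7.74, against a median of 15.43 TPM over the 15372 genes detected in both libraries. Ldha exceeded Hk2, the lowest of the 10, by 78.4-fold in replicate 1 and by 65.0-fold in replicate 2. Over protein-coding transcripts alone it did so by 151-fold and 132-fold. In descending order of mean TPM the genes were Ldha, Gapdh, Pkm, Aldoa, Pgk1, Pfkl, Hk1, Pfkp, Pfkm and Hk2. For 7 of the 9 neighbouring pairs the log2 difference had the same sign in both libraries and a mean above its SD. The exceptions were Hk1 and Pfkp, which differed by -0.09 in replicate 1 and 0.13 in replicate 2, and Pfkm and Hk2, at 0.46 ± 0.60. The hexokinase and phosphofructokinase genes thus filled the bottom of the order and genes of the later steps the top. This order ranks single genes and not steps. Summed over its 3 genes, phosphofructokinase held 234.38 and 256.5 TPM, beside 253.88 and 204.26 for Pgk1.

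**Figure D1:**
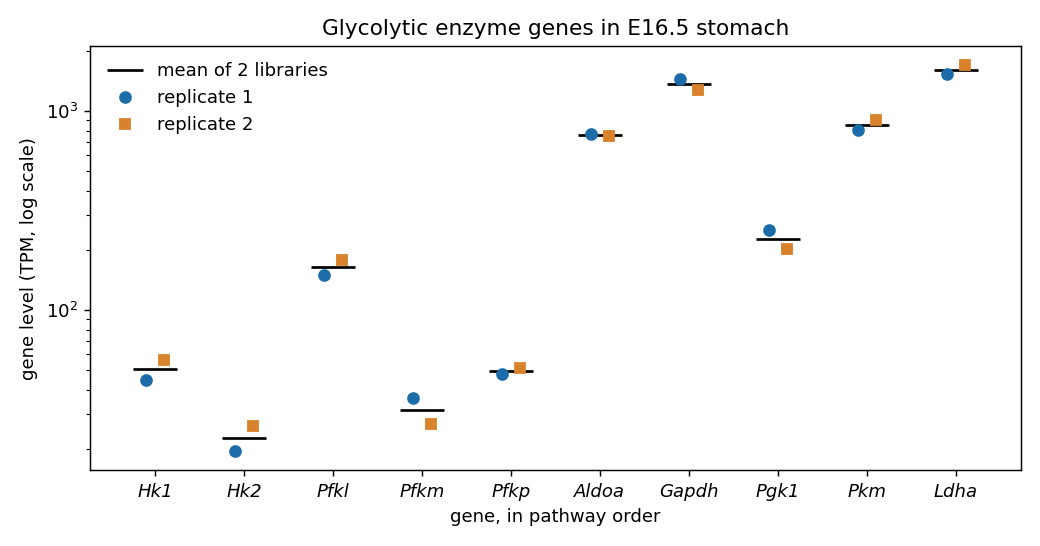
Level of the 10 glycolytic enzyme genes in TPM on a log axis, in pathway order, for replicate 1 (circles) and replicate 2 (squares) with the mean of the 2 libraries (bars). Hexokinase and phosphofructokinase genes lie between 19.65 and 178.07 TPM, and Aldoa, Gapdh, Pkm and Ldha lie at 747.57 TPM or more in both libraries.

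Hexokinase phosphorylates glucose and traps it in the cell. Hk1 (ENSMUSG00000037012; chromosome 10, 62268855 to 62379908, minus strand), the widely expressed mitochondria-bound isoenzyme, had 44.63 TPM in replicate 1 and 56.38 in replicate 2, or 50.5 ± 8.31. Hk2 (ENSMUSG00000000628; chromosome 6, 82725025 to 82774454, minus strand), the inducible isoenzyme of insulin-sensitive and growing tissue, stood at 19.65 and 26.22 TPM, or 22.9 ± 4.65. Both were lower in replicate 1. Of the summed TPM of the 5 hexokinase genes, Hk1 held 54.5% and 54.9%, Hk2 24.0% and 25.5%, and Hkdc1, a hexokinase-domain gene expressed in epithelia, 15.5% and 14.2%. The share of each of these genes differed by less than 2 percentage points between the pools.

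Much of the Hk2 level was assigned to a short non-coding transcript. Hk2-202, a processed transcript of 594 bases that lies entirely within exons of the coding Hk2-201, was given 9.52 and 13.37 TPM, or 49.7% of the gene's TPM. By expected counts, which are not corrected for length, it held only 8.34%. All its bases are shared with Hk2-201, so the split is an estimate, and protein-coding sums may leave out coding reads. Summed over protein-coding transcripts alone, Hk2 stood at 10.13 and 12.85 TPM (11.5 ± 1.92). The Hk1 share of Hk1 and Hk2 together was 68.8% by gene TPM and 81.0% by protein-coding transcripts, and by expected counts it was 74.1%. The leading transcript of Hk1 was Hk1-202 at 29.73 and 42.46 TPM. Hk1-201, which starts 17820 bases upstream of it, stood at 10.85 and 7.73 TPM, but the authors' deposited intervals for it, 6.76 to 13.8 and 2.57 to 11.01 TPM, overlap, and 96.0% of its bases also lie in Hk1-202. The antisense gene Hk1os shares 157 exon bases with Hk1 and stood at 4.28 and 4.55 TPM. The strandedness of the counting is not given in the sources used here, so reads from that stretch cannot be assigned to either strand.

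Phosphofructokinase, the main regulated step of the pathway, was led by the liver-type gene. Pfkl (ENSMUSG00000020277; chromosome 10, 77986947 to 78010083, minus strand) had 150.33 TPM in replicate 1 and 178.07 in replicate 2, or 164 ± 19.6. Pfkp (ENSMUSG00000021196; chromosome 13, 6579768 to 6648777, minus strand), the platelet type, stood at 47.61 and 51.55 TPM, or 49.6 ± 2.79. Pfkm (ENSMUSG00000033065; chromosome 15, 98092589 to 98132451, plus strand), the muscle type, stood at 36.44 and 26.88 TPM, or 31.7 ± 6.76. In both libraries the order was Pfkl, Pfkp, Pfkm. The shares of the summed TPM were 64.1% and 69.4% for Pfkl, 20.3% and 20.1% for Pfkp, and 15.5% and 10.5% for Pfkm. The Pfkp share had an SD of 0.153 percentage points, while the Pfkl share was lower and the Pfkm share higher in replicate 1.

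Pfkm RNA was assigned to transcripts with starts far apart. Pfkm-202 stood at 25.22 and 17.35 TPM and Pfkm-201, which starts 15877 bases downstream, at 11.22 and 9.53, so both were higher in replicate 1. The authors' deposited intervals overlap between the libraries, at 20.1 to 28.5 and 10.8 to 20.8 TPM for Pfkm-202. For Pfkm-201 they were 7.43 to 15.4 and 5.44 to 15.1 TPM, and 94.9% of its bases also lie in Pfkm-202. Pfkl-201 carried 99.4% of Pfkl. Pfkp was more divided: Pfkp-201 held 44.8% and Pfkp-207 24.4%, and protein-coding transcripts made up 69.2% ± 5.42 of the gene's TPM. With protein-coding transcripts alone the Pfkl share of the step was 71.1%, against 66.8% ± 3.74 by gene TPM. Pfkp shares 748 exon bases with Pitrm1 on the opposite strand, which stood at 51.99 and 53.22 TPM, so part of either value could belong to the other gene.

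**Figure D2:**
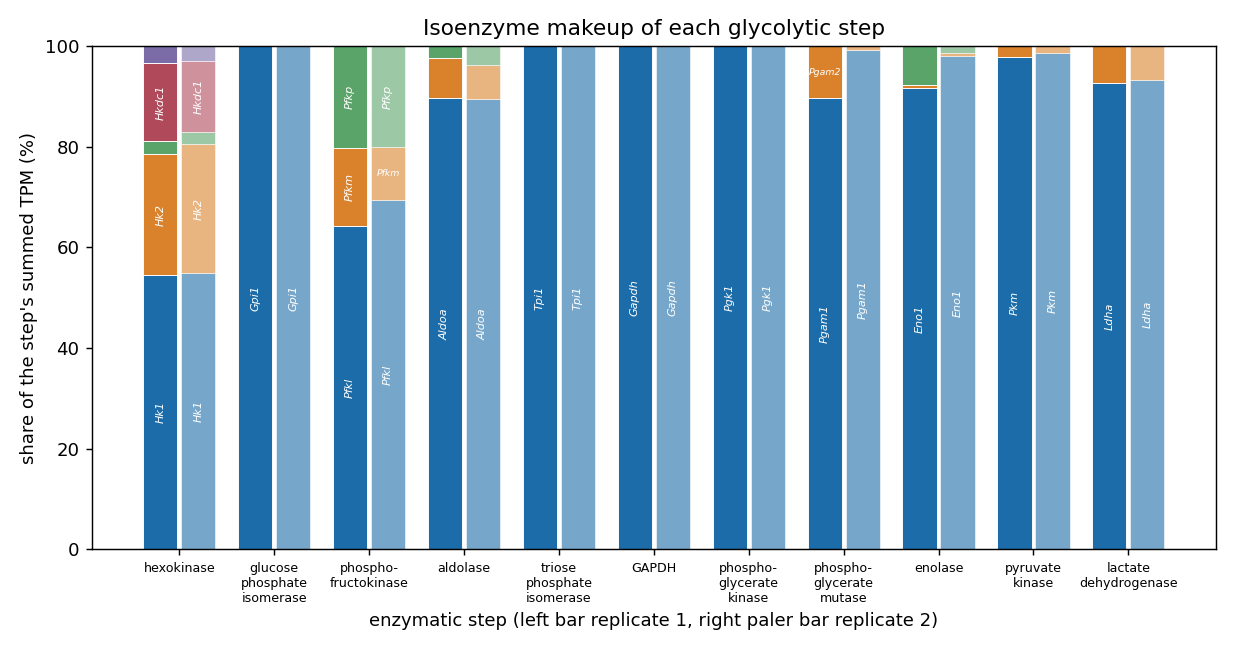
Share of each step's summed TPM held by each isoenzyme gene, in percent, for the 11 steps from hexokinase to lactate dehydrogenase; the left bar is replicate 1 and the paler right bar replicate 2, and only the larger segments are named. Hexokinase and phosphofructokinase are the mixed steps, and in the lower pathway the leading gene holds 89.4% or more in each library.

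Aldolase splits fructose bisphosphate into triose phosphates. Aldoa (ENSMUSG00000030695; chromosome 7, 126795234 to 126800751, minus strand), the muscle and general isoenzyme, stood at 768.84 and 747.57 TPM, or 758 ± 15.0, the smallest relative spread of the 10 genes. It held 89.6% and 89.4% of the step. Aldoc, the brain isoenzyme, stood at 20.78 and 31.32 TPM. The gene has several promoters, and its transcripts behaved less evenly than its total. Aldoa-201 stood at 619.36 and 635.23 TPM. Aldoa-203, whose start lies 1193 bases upstream, stood at 72.38 and 44.10, a ratio of 1.64. A further upstream-start transcript, Aldoa-210, was singled out after its values were seen, at 37.83 and 9.65 TPM, a ratio of 3.92. Of their bases 89.0% and 94.2% also lie in exons of Aldoa-201, so only the remaining bases and the joins between exons tell these transcripts apart. Aldoa-207, with the start furthest upstream at 1497 bases, was not higher in replicate 1, at 3.39 and 3.81 TPM. It too was named after its values were seen.

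Gapdh (ENSMUSG00000057666; chromosome 6, 125161715 to 125166467, minus strand) oxidises glyceraldehyde phosphate and is widely used as a reference gene. It was measured at 1448 TPM in replicate 1 and at 1286 in replicate 2, or 1367 ± 114, at percentile 99.6 of detected genes. The testis gene Gapdhs was at 0.24 and 0.34 TPM. The gene total depended on a short transcript: Gapdh-208, a processed transcript of 483 bases that lies entirely within exons of the coding Gapdh-203, was given 867.77 and 642.03 TPM, or 54.9% ± 7.08 of the gene. By expected counts it held 30.3% and 22.8%, and Gapdh-203 held 68.3% and 72.9%. All bases of Gapdh-208 are shared with Gapdh-203, so the split is an estimate, and the protein-coding sum may leave out coding reads. Protein-coding transcripts alone gave Gapdh 571.57 and 622.99 TPM, or 597 ± 36.4. On that basis Gapdh was higher in replicate 2, not replicate 1, and stood below Aldoa at 740 ± 23.7 and Pkm at 856 ± 65.8 instead of above them.

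**Figure D3:**
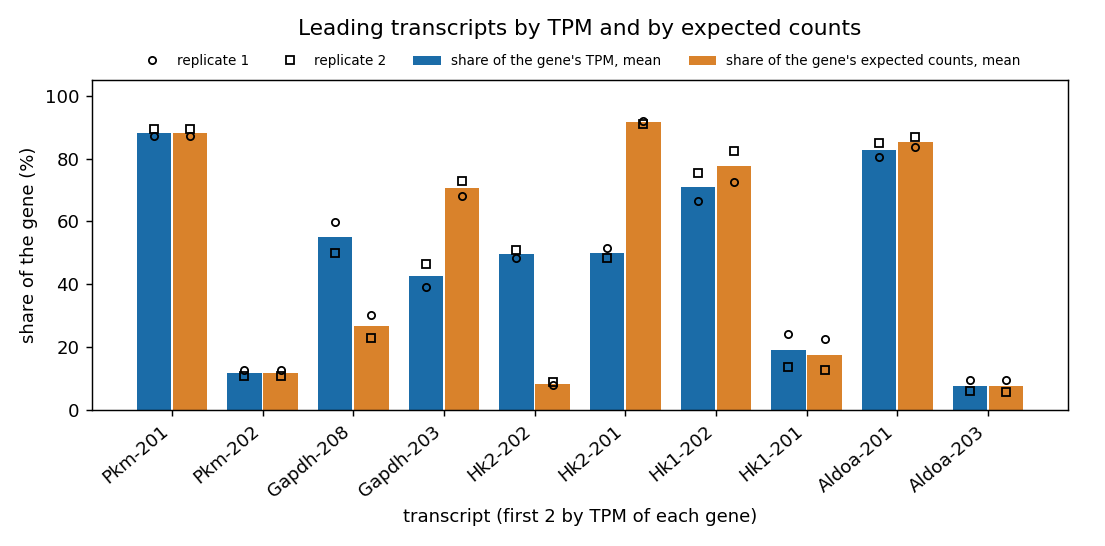
Share of the gene carried by its first 2 transcripts, as the mean over 2 libraries of the share of TPM (blue) and of expected counts (orange), with replicate 1 as circles and replicate 2 as squares. The short transcripts Gapdh-208 and Hk2-202 hold 54.9% and 49.7% of TPM but 26.6% and 8.34% of counts. The 2 Pkm forms hold the same share on both scales, as forms of equal listed length must.

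Pgk1 (ENSMUSG00000062070; chromosome X, 106187100 to 106203699, plus strand) makes the first ATP of the pathway. It had 253.88 TPM in replicate 1 and 204.26 in replicate 2, or 229 ± 35.1, and Pgk1-201 carried 99.8% of it. Its testis counterpart Pgk2 was listed at 0 in both libraries.

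Genes with near-identical processed pseudogenes share reads with them, which touched Pgk1 and Gapdh. Annotated pseudogenes were matched to a transcript of the 10 genes at 90% identity or more, over at least 100 bases and 50% of their length. Of the 199 matched, 174 were in the tables, 159 of them Gapdh copies. Pgk1-rs7, which is 100% identical to Pgk1 over 1255 aligned bases, had 36.26 TPM in replicate 1 and 112.9 in replicate 2. The Pgk1 copies made up 12.5% and 35.6% of the gene and its copies together. The Gapdh copies summed to 103.24 and 205.8 TPM, or 6.66% and 13.8%, and were higher in replicate 2 for 110 copies and in replicate 1 for 26. Only 19 Gapdh copies reached 1 TPM in both libraries, and near-identical copies share reads. The copies are therefore not separate observations of a direction. By mean TPM the highest was Gm13394, 99.9% identical over 1000 aligned bases, at 10.21 and 33.15 TPM. By gene total, the copies of both genes were higher in the library where the gene itself was lower. Over protein-coding transcripts alone this did not hold for Gapdh, at 571.57 TPM in replicate 1 and 622.99 in replicate 2. With copies added, Pgk1 stood at 290.14 and 317.16 TPM and Gapdh at 1551 and 1492. In the tables Ldha had 8 copies at 3.55 and 11.45 TPM (Ldha-ps2 at 2.69 and 8.04), 0.230% and 0.667% of the total. Pkm had 4 there, at 0.11 and 0.52. The Aldoa copy in the tables, Gm8659, was at 0, and the hexokinase and phosphofructokinase genes had none. Matched copies outside the tables have no values. Among them are a Pkm copy 98.4% identical over 1593 aligned bases and an Ldha copy 95.9% identical over 997.

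**Figure D4:**
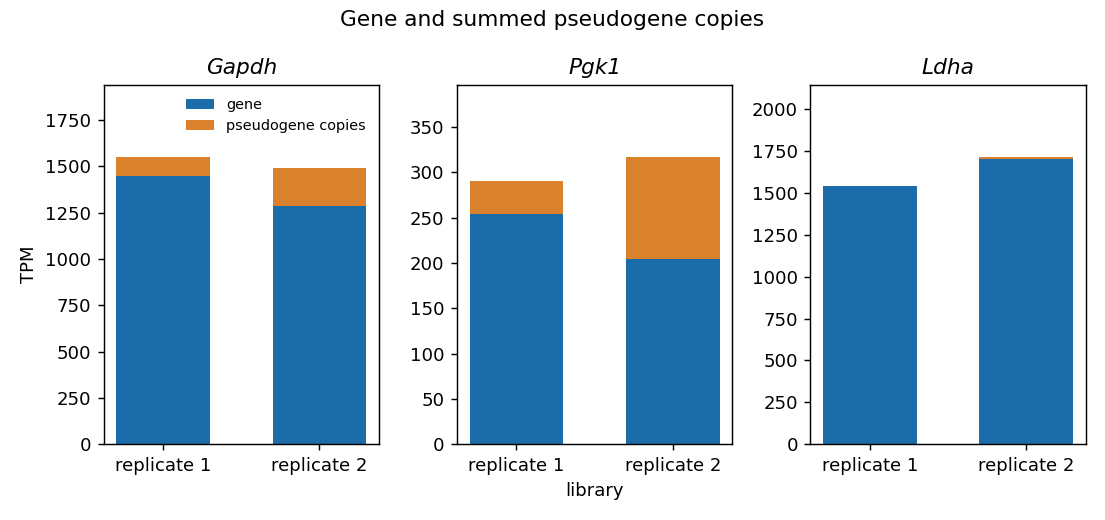
Level in TPM of Gapdh, Pgk1 and Ldha (blue) with the annotated pseudogene copies that have values stacked on top (orange), in replicate 1 and replicate 2. The copies of Pgk1 take 36.26 TPM in replicate 1 and 112.9 in replicate 2, beside 253.88 and 204.26 for the gene, and those of Ldha are barely visible.

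Pkm (ENSMUSG00000032294; chromosome 9, 59656368 to 59679375, plus strand) forms pyruvate and ATP. It had 809.03 TPM in replicate 1 and 902.13 in replicate 2, or 856 ± 65.8, and held 97.9% and 98.7% of the step. Pklr, the liver and red cell pyruvate kinase, stood at 17.74 and 11.97 TPM. The M2 form led in both libraries. M2 (Pkm-201, with exon 10) stood at 705.51 and 805.75 TPM, and M1 (Pkm-202, with exon 9) at 103.52 and 96.38. The M2 share of Pkm was 87.2% in replicate 1 and 89.3% in replicate 2, or 88.3% ± 1.49, and M2 exceeded M1 by 6.82-fold and 8.36-fold. The authors' deposited intervals, whose level the headers do not state and which surround a posterior mean, were 95.4 to 108 and 85.9 to 101 TPM for M1. For M2 they were 684 to 701 and 768 to 790 TPM, below the TPM given above in each library. The intervals cover the estimation within a library and not the spread between pools, so they do not show which form differed.

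Regulators of this splice choice were all present. The 7 genes of the Pkm splicing list were all detected. Ptbp1, Hnrnpa1 and Hnrnpa2b1 encode proteins known to repress exon 9. Ptbp1 stood at 218.92 and 260.21 TPM, Hnrnpa1 at 408.87 and 421, and Hnrnpa2b1 at 681.86 and 655.85. Srsf3, which favours exon 10, stood at 547.53 and 561.67 TPM. Ptbp2, the neural relative of Ptbp1, stood at 24.68 and 22.16 TPM. The list also held Rbm4, at 33.99 and 33.64 TPM, and Myc, at 70.74 and 77.26.

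Ldha (ENSMUSG00000063229; chromosome 7, 46841475 to 46855627, plus strand) encodes the lactate dehydrogenase subunit typical of glycolytic tissue. It was the highest of the 10, at 1540 TPM in replicate 1 and 1704 in replicate 2, or 1622 ± 117, and Ldha-202 carried 98.0% of it. Ldhb, the heart-type subunit, stood at 121.87 and 124.14 TPM, so Ldha held 92.7% and 93.2% of the step. The testis gene Ldhc was listed at 0 and 0.05 TPM.

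The remaining steps had similar levels in the pools except for their muscle isoenzymes. Gpi1 stood at 259.85 and 279.67 TPM, Tpi1 at 775.47 and 786.34, Pgam1 at 544.93 and 596.1, and Eno1 at 1195 and 1210. Gpi1 and Tpi1 were the only genes listed for their steps, and Pgam1 and Eno1 are the general isoenzymes of theirs. Pgam2, the muscle phosphoglycerate mutase, stood at 63.18 and 4.56 TPM and held 10.4% and 0.759% of its step. Eno3, the muscle enolase, stood at 101.63 and 16.15 TPM and held 7.79% and 1.31%. Of the 17 glycolytic genes outside the 10, 14 were detected.

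Differences between the pools were measured as the log2 ratio of replicate 1 over replicate 2 from TMM-scaled counts. With 2 libraries of 1 group no p-value can be had, and the ratios are set beside those of the 17763 genes past the count filter. None of the 10 genes lay beyond 2-fold, where 3.58% of all genes did (1.24% higher and 2.34% lower in replicate 1). A count of 0 among 10 is near that background and is not a result about these genes. Of the 10, 4 had a ratio above 0, against 50.4% of all genes. Their median ratio was -0.12, against 0.00 over all genes, and their median absolute ratio 0.18, against 0.14. Hk2 and Hk1 were lowest at -0.31 and -0.29, then Pfkl at -0.21, Pfkp at -0.15, and Pkm and Ldha at -0.12 each. Pfkm was highest at 0.47, then Pgk1 at 0.35 and Aldoa and Gapdh at 0.06 each. When libraries were scaled on the added ERCC spike-ins, the median of all genes moved by -0.57 and these last ratios all fell below 0, so the directions are relative to the bulk of genes. With pseudogene counts added, Pgk1 went to -0.075 and Gapdh to -0.050, and the other 8 genes kept their sign.

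**Figure D5:**
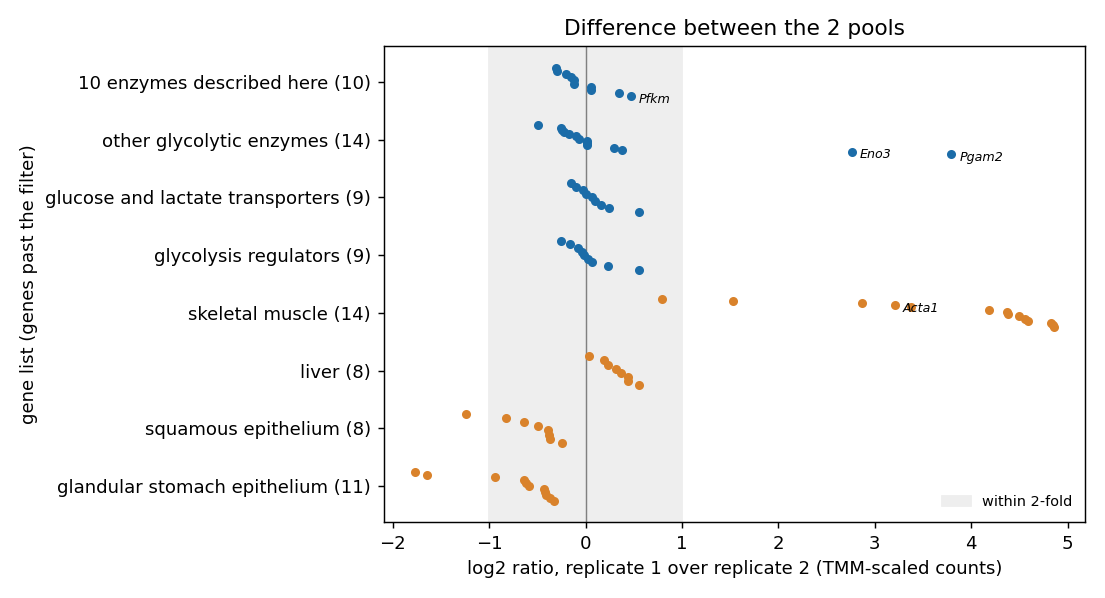
Log2 ratio of replicate 1 over replicate 2 for genes past the count filter, one point per gene, in the glycolytic lists (blue) and in marker lists of tissues (orange), with the grey band marking the range within 2-fold. The 10 enzymes lie between -0.31 and 0.47, whereas Pgam2, Eno3 and 13 of the 14 skeletal muscle genes lie above 1.

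The muscle isoenzyme genes Pgam2 and Eno3 were higher in the library that held more skeletal muscle RNA, under TMM and under spike-in scaling. All 14 skeletal muscle markers were higher in replicate 1, 13 of them by over 2-fold, with a median log2 ratio of 4.38 (3.80 with spike-in scaling). Acta1, the skeletal actin gene, stood at 906.02 and 100.67 TPM, the myosin light chain gene Myl1 at 404.63 and 17.63, and the lowest, Myod1, at 3.27 and 1.13. The marker within 2-fold was Actn3, named after its values were seen, at 7.25 and 4.42 TPM. Beside these, the log2 ratio was 3.79 for Pgam2 and 2.76 for Eno3 (3.23 and 2.19 with spike-in scaling). For Pfkm it was 0.47, and -0.10 with spike-in scaling. The M1 share of Pkm was 12.8% in replicate 1 and 10.7% in replicate 2. Upstream-start Aldoa-203 stood at 72.38 and 44.10 TPM, but Aldoa-207, with the start furthest upstream, stood at 3.39 and 3.81. Aldoa as a gene, also a muscle isoenzyme, was at 0.06, and Fbp2, the muscle fructose bisphosphatase, at -0.15. Unlike the skeletal muscle list, 7 of 8 smooth muscle genes were lower in replicate 1, with a median log2 ratio of -0.17 (-0.75 with spike-in scaling). The part of skeletal or smooth muscle RNA in these values was not tested. Epithelial markers were lower in replicate 1 as well, for 8 of 8 squamous and 11 of 11 glandular genes. Their median log2 ratios were -0.44 and -0.58. The liver list, from a tissue known for Pklr, had a median of 0.34, and the erythroid list, the other tissue of that gene, a median of 0.13 with 7 of 8 genes higher in replicate 1, beside 0.38 for Pklr. With spike-in scaling the liver median was -0.24, the erythroid median -0.45 and Pklr -0.20. The part of these tissues was not tested either.

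Genes that feed and drain the pathway were described from lists of their carriers and regulators. Of 9 glucose and lactate transporter genes 8 were detected. Slc2a1, the general glucose carrier GLUT1, stood at 122.33 and 139.01 TPM, and Slc2a4, the insulin-responsive carrier, at 31.63 and 32.12. Lactate leaves cells through monocarboxylate carriers: Slc16a3 stood at 51.91 and 44.76 TPM, Slc16a1 at 29.66 and 30.88, and their chaperone Bsg at 843.44 and 824.41. Slc2a2, the liver and beta cell carrier, was low at 3.81 and 3.49. Of 9 regulator genes 8 were detected. Pfkfb3, which makes the activator of phosphofructokinase, stood at 12.95 and 17.22 TPM and Pfkfb2 at 9.37 and 9.43. Txnip, which restrains glucose uptake, stood higher at 144.21 and 136.97.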

How the data were processed

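Per the labels' protocols, longer RNA was extracted with mirVana, and each library took 10 ng, with a SMARTer Ultra Low manual and ERCC spike-ins listed. The genome was mm10 with annotation M4, according to the text files deposited beside the tables. The sources used here do not name an aligner, a quantifier or a strand setting. The authors deposited expected counts, reads estimated for each feature, per the file headers. The authors deposited TPM, posterior mean TPM with lower bounds of an interval, and FPKM for the same features. The upper interval bounds of the TPM signal that the authors estimated and deposited were treated here only as the upper ends of the intervals. The percent of a gene's TPM held by each transcript was deposited by the authors but recomputed here from TPM.

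Names, transcript types, exons and coordinates come from GENCODE M21 on GRCm38, the same assembly in a later release; 42462 of 43346 genes matched a symbol. Spike-ins and features with numeric identifiers stayed out of library sizes. Expected counts were rounded, filtered with filterByExpr for 1 group, and scaled with edgeR 4.0.16 under R 4.3.3 by TMM, with factors of 1.01 and 0.992, and log2 ratios used a prior count of 2. DESeq2 1.42.0 gave an alternative. The ratio step was tested on simulated data. Pseudogenes were matched with blastn 2.17.0 at 90% identity over 100 bases and 50% of the copy. Other steps used Python 3.11.15, pandas 2.3.3, numpy 2.4.6 and matplotlib 3.10.9. No test was run: 1 group of 2 libraries has no comparison between conditions, and the lowest expected counts of the 10 genes were 1828 (Hk2, replicate 1) and 1264 (Pfkm, replicate 2). The biological coefficient of variation was 17.3%.

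The genes and lists were chosen with earlier results of these data known. Named were the 10 genes, any gene of the pathway lists, the 2 highest and the lowest of a marker list, the first 2 transcripts of each gene and the highest pseudogene copy. Alternatives changed the unit, threshold, scaling, filter, prior count, transcripts, pseudogenes and libraries used; sums over protein-coding transcripts, and pseudogene counts in the ratios, were added after the data were seen. Some genes of the pathway are not reported here.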

Additional observations from a re-analysis of the deposited data

How the results depend on the processing

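All 10 genes stayed at 1 TPM or more in both libraries, and at 5 TPM, under each unit tried, and 0 lay beyond 2-fold under each scaling, filter and prior count tried. With ERCC spike-in scaling the median log2 ratio of the 10 genes was -0.70 instead of -0.12, Pfkm went to -0.10, Aldoa to -0.52, Gapdh to -0.52 and Pgk1 to -0.23; spike-ins took 3.08% of counts in replicate 1 and 2.05% in replicate 2. With pseudogene copies added, the Gapdh ratio was -0.050, the Pgk1 ratio -0.075 and the median level 234 TPM, and rescaling TPM without spike-ins gave a median level of 208 TPM, against 197. The Pfkl share of its step was 73.1% by expected counts and 71.1% by protein-coding transcripts, and the Hk1 share of Hk1 and Hk2 was 74.1% and 81.0%. DESeq2 size factors, no count filter and a prior count of 0.5 left 10 of 10 ratios within counting error of the values given. The M2 share of Pkm moved by less than its SD under each alternative tried. FPKM, expected counts and the choice of transcripts could not move it, because Pkm has 2 protein-coding transcripts of equal listed length. Posterior mean TPM gave 88.255%, against 88.26%. Leaving out either replicate leaves the other library's value, which by construction lies within 1 SD of the mean of 2. No paired analysis was possible because the 2 libraries belong to 1 group and no second group shares their replicate numbers. The lowest expected count of the 10 genes, 1264 for Pfkm in replicate 2, leaves little counting error. Reads shared with overlapping genes were not resolved.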

Other observations

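Beyond lactate, pyruvate can enter mitochondria. The 12 genes of the pyruvate carrier, the pyruvate dehydrogenase complex and its kinases and phosphatase were all detected. The carrier genes Mpc1 and Mpc2 stood at 167.16 and 164.44 and at 149.48 and 118.64 TPM in replicates 1 and 2. Pdha1, the catalytic subunit gene, stood at 119.73 and 138.54 TPM. Among the kinases that switch the complex off, Pdk1 at 54.75 and 55.28 TPM was highest, before Pdk3 at 41.61 and 40.49, and Pdk4 was lowest at 5.09 and 4.32.

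Gluconeogenesis genes were uneven. Fbp2, the muscle fructose bisphosphatase, stood at 92.93 and 105.98 TPM and its liver counterpart Fbp1 at 3.29 and 3.55, and G6pc, which releases glucose from liver, was at 0.07 and 0.13. Fbp2 was not higher in the library with more skeletal muscle RNA, unlike Pgam2 and Eno3: its log2 ratio was -0.15. Pck2 at 24.48 and 26.79 TPM stood above Pck1 at 1.59 and 1.94.

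Of the hypoxia response list 13 of 13 genes were detected, with a median log2 ratio of -0.03. Ndrg1 stood at 191.81 and 249.43 TPM and Bnip3 at 111.34 and 112.24, while Vegfa was at 3.19 and 3.05. Ankrd37 had the lowest ratio of the list, -0.55, at 22.04 and 34.72 TPM.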
